A study of Mus musculus with 30 samples.

Results

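The gastrocnemius, the large calf muscle, was compared between mice with a transection of the spinal cord at the third thoracic segment (T3) and mice given a sham operation. The comparison used the 8 gastrocnemius libraries of these groups, 4 per group, out of 30 RNA-seq libraries in the series, chosen by their labels alone. Both groups were male, and both were sampled 3 days after surgery, so sham muscle also came from operated mice. The labels name no strain, age or genotype. Each library was made from a piece of whole muscle, so fewer cells of a type and less RNA per cell cannot be told apart. The labels do not say that the 4 libraries of a group came from separate animals, and the p-values measure the spread between libraries within groups. The estimate of that spread also used the further gastrocnemius libraries named next. Further comparisons used the 4 gastrocnemius libraries after a transection at the ninth thoracic segment (T9) and libraries of the triceps brachii, an upper forelimb muscle, after T3 transection or sham surgery.

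The motor neurons of the gastrocnemius lie in the lumbar cord, below either level of injury, and those of the triceps brachii lie in the cervical cord, above both. A thoracic cut therefore leaves the gastrocnemius attached to its motor neurons while removing their input from the brain, and it can also change the hormones that reach every muscle. Muscle loses protein when the ubiquitin-proteasome system and the lysosome degrade it faster than ribosomes replace it. FoxO transcription factors, the glucocorticoid receptor, the myostatin and activin receptors and the loss of electrical activity are textbook regulators of that balance.

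Expression is given in read counts scaled to a library size of 1000000 (CPM), and a change is the difference between group means of the deposited log2 values, with its standard error (SE, after ±), and an adjusted p. The test was that of limma, with Benjamini-Hochberg adjustment over all genes tested. The 8 libraries held 14751762 to 21382478 reads. Of 11248 genes tested, 3046 (27.1%) were higher and 748 (6.65%) were lower after T3 transection at an adjusted p under 0.05. Over all genes the log2 change had a median of 0.27. After each library was centred on its own median, 1641 genes (14.6%) were higher and 1627 (14.5%) lower, with a median of -0.01. With the median of each library as a covariate in the fit, 1191 genes (10.6%) were higher and 888 (7.89%) lower. Each count of list members between T3 and sham below is therefore given as deposited, after centring and with that covariate, and "rose" or "fell" is used of genes that passed the test on the deposited values. The lists and their members were chosen with earlier results of these data known. Their counts describe the lists and are no independent test of them. In 2691 genes (23.9%) every T3 library was above every sham library, and in 655 (5.82%) every T3 library was below.

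The sham libraries differed from one another more than the T3 libraries did. Across genes, the correlation of log2 values ran from 0.893 to 0.983 between sham libraries and from 0.977 to 0.992 between T3 libraries. Ckm, the muscle creatine kinase and a defining marker of skeletal muscle, was at 9108 to 16865 CPM in the 8 libraries. Sham replicate 4 had the lowest median log2 value, 3.66 against 3.86 to 4.06 in the other sham libraries and 4.05 to 4.26 in the T3 libraries. The mitochondrially encoded genes took 9.54% to 13.1% of reads in sham muscle and 7.48% to 8.06% in T3 muscle. Long and short genes also moved differently: the fifth of genes with the shortest exonic length (median 1378 bases) had a median log2 change of -0.07, and the fifth with the longest (median 9998 bases) had 0.39. The part that length plays in the gene groups below was not tested. Since the medians of the groups lie side by side, the covariate also takes up part of the difference between them. Centring removes the shift of the median, not the relation to length.

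Among genes with large changes, the risen ones covered endosomal sorting, nucleotide and amino acid handling and cytokine reception. Hgs, which encodes a subunit of the complex that sorts ubiquitinated membrane proteins into endosomes, was at 17.5, 24.3, 31.7 and 11.9 CPM in the 4 sham libraries. In the 4 T3 libraries it was at 259.5, 248, 170.3 and 161 CPM, a log2 change of 3.36 ± 0.28, adjusted p = 6.5e-06. Every T3 library was above every sham library for this gene. Ampd3, the erythrocyte-type AMP deaminase that converts AMP to IMP, was at 5.61, 7.94, 11.2 and 4.44 CPM in sham and 59.1, 80.6, 75.7 and 65.7 CPM in T3 muscle (log2 change 3.34 ± 0.24, adjusted p = 2.8e-06). Slc6a9, a glycine transporter, went from 1.37, 3.87, 3.13 and 0.998 CPM to 25.8, 17.8, 18.4 and 19.9 CPM (log2 change 3.31 ± 0.36, adjusted p = 3.2e-05). Il6ra, the ligand-binding chain of the interleukin-6 receptor, was at 4.43, 2.0, 7.72 and 3.99 CPM in sham and 49, 24.1, 37 and 54.5 CPM in T3 libraries (log2 change 3.26 ± 0.34, adjusted p = 2.8e-05). For these 3 genes too the groups did not overlap. Sik1, a kinase whose own transcription answers to cyclic AMP, rose from a mean of 6.09 ± 1.99 CPM to 54.8 ± 12.1 CPM (SD, n = 4 each, here and for every mean below in this muscle). Lpin2, a phosphatidate phosphatase named from the list of lipid and sterol synthesis, rose from 2.01 ± 0.668 to 17.8 ± 3.14 CPM.

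Fallen genes with large changes included enzymes of ketone and NAD metabolism, a water channel and a cyclic GMP-dependent kinase. Lrrc52, an auxiliary subunit of large-conductance potassium channels, had 4.15, 2.07, 2.15 and 1.65 CPM in the sham libraries and no read in any of the 4 T3 libraries. Over the 68186257 reads of the T3 libraries a count of 0 allows up to 0.044 CPM, the level that 3 reads over the group would give, so the gene was at least 57.9-fold lower than the sham level of 2.55 CPM. That limit covers counting error only. Nmrk2, the muscle nicotinamide riboside kinase that makes an NAD precursor, was at 409, 651, 192 and 357 CPM in sham and 9.36, 45.9, 23.5 and 18.6 CPM in T3 muscle (log2 change -4.14 ± 0.45, adjusted p = 3.2e-05). Bdh1, the mitochondrial enzyme that takes beta-hydroxybutyrate into ketone oxidation, was at 34.8, 44.2, 46.7 and 21.6 CPM in sham and 4.76, 1.29, 1.48 and 2.13 CPM in T3 muscle (log2 change -4.05 ± 0.38, adjusted p = 1.1e-05). The T3 libraries lay below all sham libraries for each of these. Aqp4, the water channel of fast fibres, was at 38.8, 26, 37 and 27 CPM in sham and 1.81, 3.39, 7.49 and 1.96 CPM in T3 libraries (log2 change -3.35 ± 0.40, adjusted p = 6.1e-05). Gdap1, an outer mitochondrial membrane protein of fission, was at 24, 20.0, 21.2 and 23.1 CPM in sham and 2.13, 2.24, 3.77 and 2.13 CPM in T3 muscle, with T3 replicate 3 apart from the other T3 libraries (log2 change -3.13 ± 0.20, adjusted p = 1.7e-06). A pair of signalling kinases also fell: Prkg1, the cyclic GMP-dependent kinase, from 31.2 ± 7.34 to 5.05 ± 0.804 CPM, and Map2k6, an activator of p38 MAP kinases named from the MAPK list, from 31.3 ± 3.4 to 5.42 ± 0.812 CPM.

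**Figure D1:**
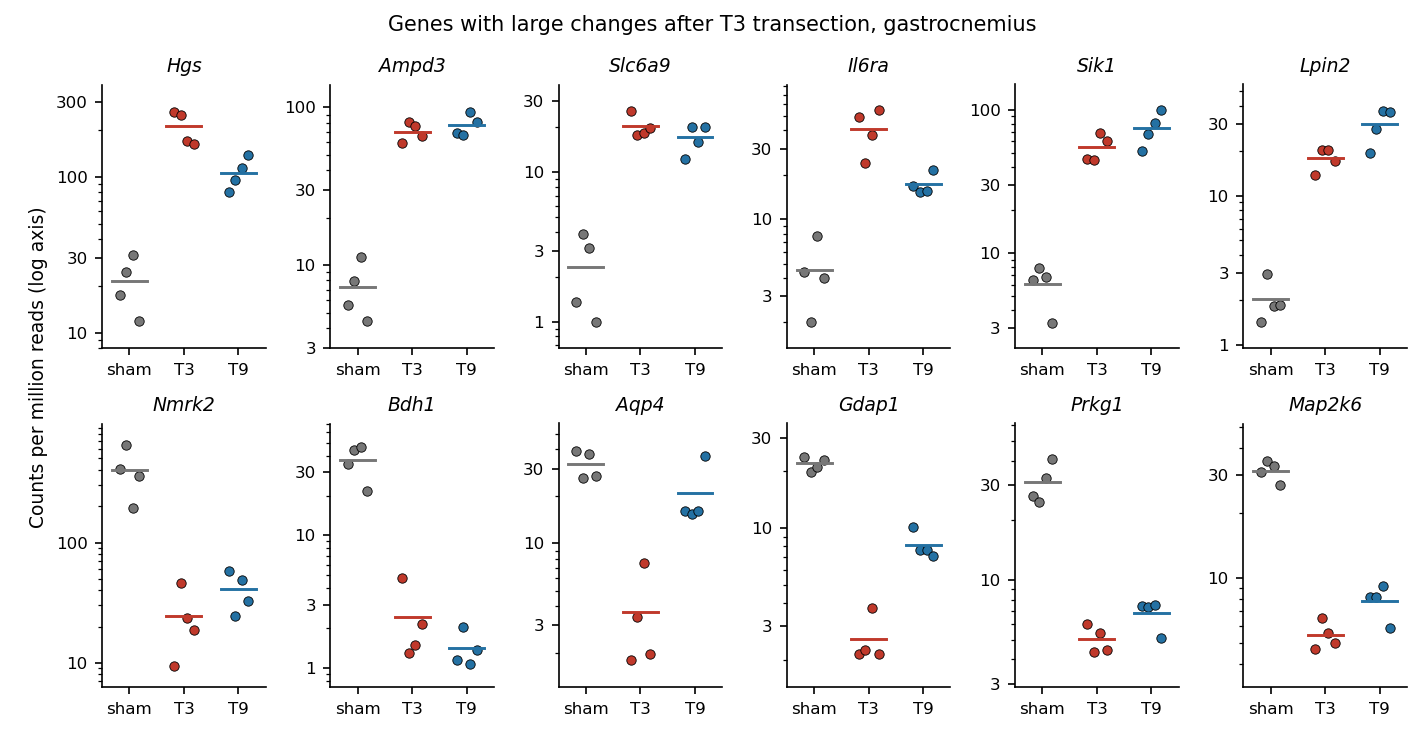
CPM (log axis) in each gastrocnemius library for 12 genes with large changes after T3 transection; each point is 1 library and the short bar is the group mean. For Hgs, Ampd3, Slc6a9, Il6ra, Sik1 and Lpin2 all T3 points lie above all sham points, and for Nmrk2, Bdh1, Aqp4, Gdap1, Prkg1 and Map2k6 all lie below; the T9 group is shown beside them.

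Most genes of the machinery that carries ubiquitinated proteins to the proteasome rose on the deposited values. Of 19 genes for p97 (Vcp), its adaptors and the ubiquitin shuttle factors, 16 (84.2%) rose and 1 (5.26%) fell. Over all genes 27.1% rose and 6.65% fell. After centring 12 of the 19 were higher and 1 lower, and with the covariate 8 and 0. Their median log2 change on the deposited values was 0.82, against 0.27 over all genes. p97 is the ATPase that unfolds ubiquitinated proteins and pulls them from membranes and complexes. Vcp itself rose from 295 ± 126 to 698 ± 75.2 CPM. Nploc4 and Ufd1, the pair of adaptors that bind ubiquitin for p97, rose by 2.17 and 1.08 on the log2 scale (adjusted p = 1.6e-05 and 0.0002), the former from 54.4, 67.9, 83.9 and 41.3 CPM to 326, 295, 227 and 237 CPM. Ubxn4, an adaptor of p97 at the endoplasmic reticulum, rose by 1.31, and Plaa, a further ubiquitin-binding partner of p97, by 1.28. The member that fell was Ubxn2a, by 0.50, and it lost the call without sham replicate 1 or 4 or T3 replicate 1, 2 or 4 (adjusted p = 0.056 to 0.084).

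Conjugating enzymes rose in part and ligases in both directions. Of 26 genes for ubiquitin itself, E1 and E2 enzymes, 10 (38.5%) rose and 0 fell, against 27.1% and 6.65% of all genes. After centring 5 were higher and 2 lower, and with the covariate 3 and 0. On the deposited values, the number lower was 2 without sham replicate 2 and 1 without sham replicate 3 or T3 replicate 3. Ube2o, a large enzyme with both E2 and E3 activity, rose from 20.3, 38.6, 37.1 and 12.2 CPM to 85.2, 83.4, 61.1 and 62.8 CPM (log2 change 1.56 ± 0.30, adjusted p = 0.002). Of 36 ubiquitin ligases expressed in muscle, 16 (44.4%) rose and 2 (5.56%) fell. After centring 9 ligases were higher and 6 lower, and with the covariate 6 and 4. The best known pair of atrophy ligases led them: Fbxo32 (atrogin-1) was at 204, 325, 265 and 134 CPM in sham and 2426, 1834, 1388 and 1578 CPM in T3 muscle. Trim63 (MuRF1) was at 422, 232, 252 and 189 CPM in sham and 2391, 1773, 1356 and 1427 CPM in T3 muscle. T3 replicate 1 was the highest T3 library for both. Fbxo31, which marks oxidised and cell cycle proteins for degradation, rose by 1.72 on the log2 scale. Asb5, a substrate adaptor of cullin ligases, fell from 343, 259, 177 and 349.7 CPM to 115, 146, 115 and 110.3 CPM (log2 change -1.17 ± 0.19, adjusted p = 0.00065). The number of ligases that fell was 1 without sham replicate 1, sham replicate 2 or T3 replicate 4, and 4 without sham replicate 4. Among 32 deubiquitinases, 8 (25%, against 27.1% of all genes) rose and 0 fell (7 and 0 after centring, 2 and 0 with the covariate), but without sham replicate 2 the numbers were 17 and 1. Usp14, which trims ubiquitin chains on the proteasome, was one of the risen (log2 change 1.25 ± 0.17, adjusted p = 0.00017).

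FoxO factors bind the letters GTAAACA and are known regulators of Trim63. The promoter of Trim63 is shown because it is the atrophy ligase with an entry in the promoter table; the window runs from 250 bases before to 50 bases after the RefSeq start site, GRCm38.p6, chr4:134314870-134315169, plus strand. Capitals mark the match to GTAAACA, which was searched on both strands and is held by 3.65% of 32851 promoter windows of the same length.
Trim63: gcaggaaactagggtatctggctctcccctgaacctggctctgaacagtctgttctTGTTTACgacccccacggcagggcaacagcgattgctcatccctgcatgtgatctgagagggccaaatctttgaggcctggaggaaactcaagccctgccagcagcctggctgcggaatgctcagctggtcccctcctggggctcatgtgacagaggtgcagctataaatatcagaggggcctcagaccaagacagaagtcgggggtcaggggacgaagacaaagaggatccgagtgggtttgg
The window holds 1 match, on the minus strand. Foxo1 rose from 28.7, 13.2, 15.8 and 10.4 CPM to 94.1, 70.6, 67.2 and 68.7 CPM (log2 change 2.23 ± 0.29, adjusted p = 0.00011). Foxo3 rose from 17.8, 19.4, 33.5 and 11.7 to 52, 41.4, 47.2 and 60.9 CPM (log2 change 1.38 ± 0.25, adjusted p = 0.0012). For both factors the T3 libraries lay above the sham libraries.

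Lysosomal genes that passed the test were mostly higher, as was so over all genes. Of 32 lysosomal genes, 15 (46.9%) rose and 1 (3.12%) fell, against 27.1% and 6.65% of all genes. After centring 10 were higher and 3 lower, and with the covariate 7 and 3. On the deposited values, 2 were lower without sham replicate 4. The median log2 change of the list was 0.54 as deposited and -0.03 with the covariate. Ctsl, the cysteine protease cathepsin L, was at 89.9, 82.7, 92.5 and 68.6 CPM in sham and 408, 778, 353 and 353 CPM in T3 libraries, with T3 replicate 2 the highest (log2 change 2.43 ± 0.22, adjusted p = 1.1e-05). Ctsd, the aspartic protease cathepsin D, rose by 1.60 and Gaa, the acid alpha-glucosidase that degrades glycogen in the lysosome, by 1.95 on the log2 scale. Fnip1, a folliculin partner that helps to hold the lysosomal regulator TFEB in the cytosol, was the member that fell, from 88.1, 57.5, 71 and 69.9 CPM to 34, 32.1, 34.8 and 36.6 CPM (log2 change -1.04 ± 0.15, adjusted p = 0.0002).

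Signals for growth moved in mixed directions. Of 30 genes of insulin, IGF and Akt signalling, 12 (40%) rose and 3 (10%) fell, against 27.1% and 6.65% of all genes. After centring 8 were higher and 4 lower, and with the covariate 4 and 4. The 3 that fell were Igf1, Irs1 and Grb14. The growth factor Igf1 went from 15.2, 21.6, 21.9 and 24.2 CPM to 3.28, 6.71, 10.5 and 6.94 CPM (log2 change -1.69 ± 0.32, adjusted p = 0.0019). The receptor substrate Irs1 went from 20.7, 56.6, 27.7 and 17.1 to 10.7, 9.02, 11.2 and 11.7 CPM (log2 change -1.36 ± 0.31, adjusted p = 0.0053), and Grb14, an adaptor that inhibits the insulin receptor, went from 12.5 ± 1.88 to 3.02 ± 0.725 CPM. In none of these 3 did a T3 library reach the lowest sham library. Downstream of the receptors, Pik3r1, the regulatory subunit of PI3 kinase and a known glucocorticoid target, was at 32.8, 23.6, 55 and 28.8 CPM in sham and 127, 161, 148 and 168 CPM in T3 muscle (log2 change 2.17 ± 0.24, adjusted p = 3.3e-05). Tbc1d1, the Rab GTPase-activating protein that gates movement of the glucose transporter, rose from 39.8 ± 18.3 to 193 ± 26.1 CPM.

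Among 33 regulators and outputs of mTORC1, the kinase complex that promotes protein synthesis, 9 (27.3%) rose and 2 (6.06%) fell, about the shares of all genes (4 and 3 after centring, 5 and 2 with the covariate; 1 was lower without sham replicate 1, T3 replicate 1 or T3 replicate 2). The count is therefore no result about the list, and 2 of its members with small adjusted p are given as single genes. Eif4ebp1, the repressor of cap-dependent translation, went from 46.3, 49, 53.1 and 61.5 CPM to 294, 346, 208 and 234 CPM (log2 change 2.35 ± 0.17, adjusted p = 2.8e-06). Castor2, of the family of arginine sensors that restrain mTORC1, went from 39.2, 61, 67.3 and 33.1 to 224, 195, 263 and 235 CPM (log2 change 2.25 ± 0.21, adjusted p = 1.1e-05).

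In the myostatin, activin and BMP list, 11 of 28 genes (39.3%) rose and 2 (7.14%) fell, against 27.1% and 6.65% of all genes. After centring 7 were higher and 2 lower, and with the covariate 3 and 4. The number that rose was 7 without sham replicate 1 and 5 without T3 replicate 3 or T3 replicate 4. Mstn, the ligand myostatin that limits muscle mass, was at 36.6, 49.9, 56.7 and 69.2 CPM in sham and 94.1, 55.2, 72.7 and 79.3 CPM in T3 libraries and did not pass the test (log2 change 0.52 ± 0.21, adjusted p = 0.071). Its relative Gdf11 fell by 0.88 on the log2 scale (adjusted p = 0.012). Acvr1b, a type I receptor shared by these ligands, rose from 33.1, 33.6, 75.5 and 33.3 CPM to 127, 81, 137 and 122 CPM (log2 change 1.49 ± 0.26, adjusted p = 0.00087). Fst, the secreted antagonist follistatin, rose from 1.27, 0.775, 2.95 and 2.75 to 5.91, 4.61, 8.04 and 7.95 CPM (log2 change 1.92 ± 0.38, adjusted p = 0.0021). Receptor and antagonist both lay above every sham library in every T3 library, although Fst stayed between 0.775 and 8.04 CPM. Fstl1, a follistatin-like secreted glycoprotein, fell from 30.9 ± 7.8 to 13.3 ± 0.950 CPM.

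Single hormone receptors are given next. Nr3c1, the glucocorticoid receptor, was at 75.7, 72.1, 70.7 and 67.1 CPM in sham and 56.96, 61.4, 80.8 and 77.2 CPM in T3 muscle and did not pass the test (log2 change -0.06 ± 0.14, adjusted p = 0.75). Of 25 other receptors and partners for thyroid hormone, catecholamines and related ligands, 6 (24%) rose and 3 (12%) fell, against 27.1% and 6.65% of all genes (6 and 7 after centring, 3 and 4 with the covariate; 5 were lower without sham replicate 4). Rxrg, the retinoid X receptor subtype of muscle, was among the fallen (log2 change -1.33 ± 0.14, adjusted p = 2.7e-05).

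Most tRNA synthetases and translation factors rose on the deposited values, and for the synthetases this count depended on the scaling. Of 22 cytosolic tRNA synthetases and their scaffold proteins, 17 (77.3%) rose and 1 (4.55%) fell, against 27.1% and 6.65% of all genes. After centring 11 were higher and 1 lower, and with the covariate 4 and 1. The median log2 change as deposited was 0.65. Vars, the valine enzyme, was at 32.3, 67.4, 63.7 and 22.5 CPM in sham and 187, 194, 175 and 164 CPM in T3 muscle (log2 change 2.097 ± 0.29, adjusted p = 0.00017). The enzymes for leucine, Lars, and for glutamate and proline, Eprs, rose by 1.48 and 1.41 on the log2 scale. Aimp2, a scaffold of the multi-synthetase complex, was the member that fell, from 99, 70.5, 64.7 and 112 CPM to 22.2, 25.2, 24 and 23.1 CPM, without overlap (log2 change -1.84 ± 0.18, adjusted p = 1.5e-05). Of 48 translation initiation and elongation factors, 29 rose and 1 fell (19 and 1 after centring, 25 and 1 with the covariate). Eif4a1, the helicase of the cap-binding complex, rose by 1.55 (adjusted p = 0.00019). The cap-binding protein of the same complex, Eif4e, fell from 127, 96.2, 96.7 and 141 to 55.7, 67.2, 64.3 and 55.9 CPM (log2 change -0.91 ± 0.16, adjusted p = 0.00083).

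Chaperone genes that passed the test were mostly higher, as was so over all genes. Of 47 cytosolic heat shock proteins and cochaperones, 23 (48.9%) rose and 1 (2.13%) fell, against 27.1% and 6.65% of all genes (17 and 4 after centring, 10 and 2 with the covariate). Hspb7, a small heat shock protein of heart and muscle, was at 282, 300.1, 379 and 164 CPM in sham and 823, 1133, 630.1 and 861 CPM in T3 libraries (log2 change 1.65 ± 0.24, adjusted p = 0.00028). Hsp90ab1, the constitutive HSP90, rose from 1004, 1577, 1523 and 754 CPM to 3284, 3833, 3269 and 3318 CPM (log2 change 1.56 ± 0.21, adjusted p = 0.00015), and Cct2, a subunit of the chaperonin that folds actin and tubulin, by 1.04. The member that fell was Bag1, a nucleotide exchange factor of HSP70 (log2 change -0.55 ± 0.19, adjusted p = 0.04). It lost the call without any 1 of 6 libraries, sham replicate 1 or 4 or any T3 library (adjusted p = 0.062 to 0.11). In the endoplasmic reticulum, 15 of 28 chaperones and stress genes (53.6%) rose and 0 fell. After centring 8 were higher and 1 lower, and with the covariate 3 and 0. On the deposited values, 1 was lower without sham replicate 2 or 3. Canx, the lectin chaperone calnexin, rose by 1.13 and P4hb, a protein disulfide isomerase, by 0.88.

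**Figure D2:**
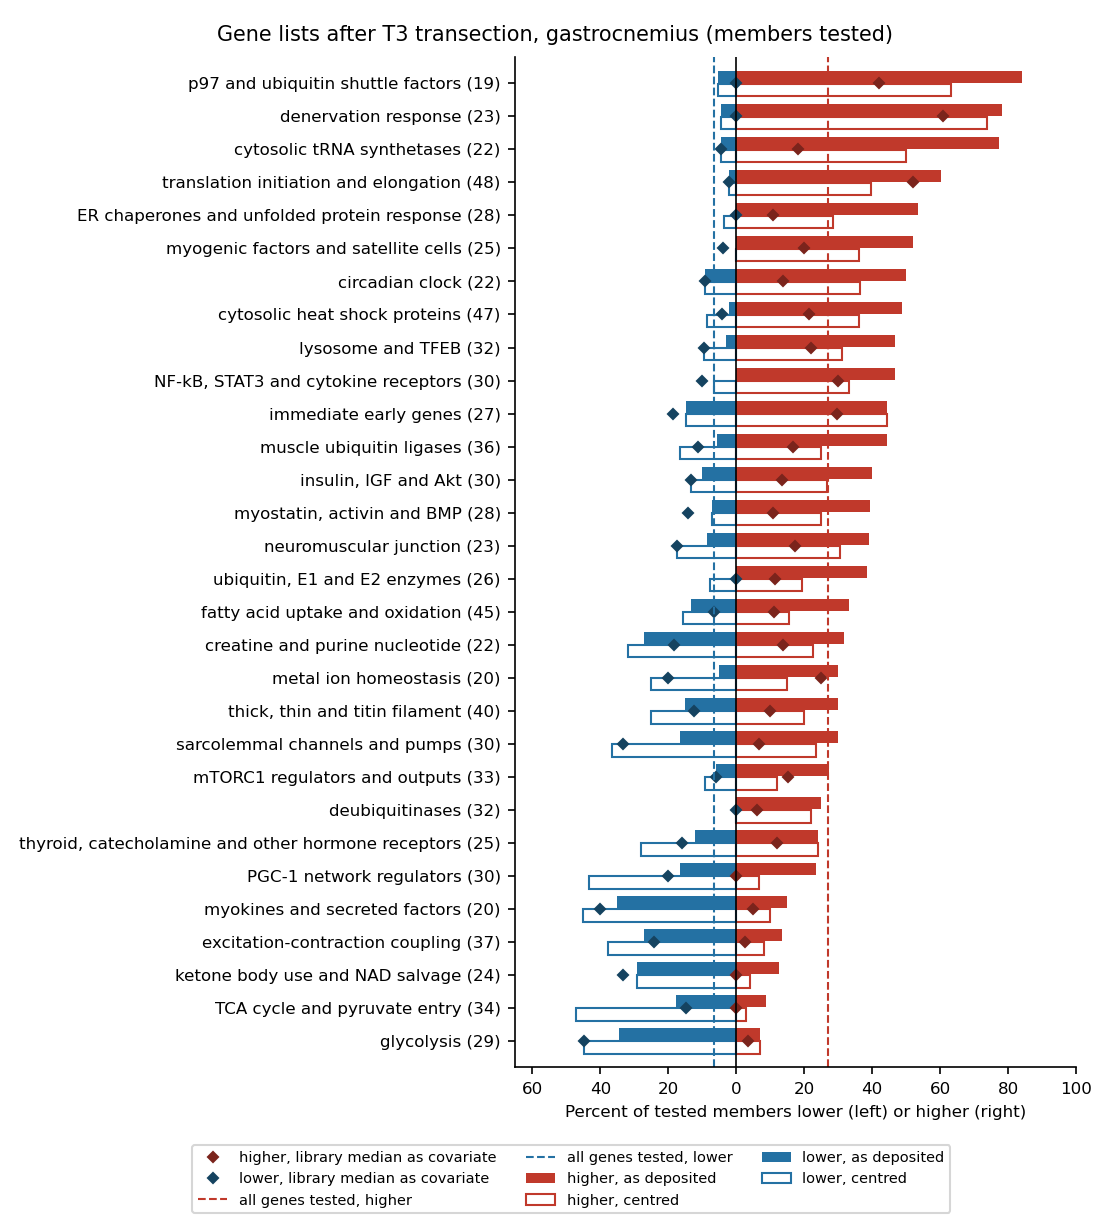
Percent of tested members of 30 gene lists that were higher (right) or lower (left) after T3 transection, on the deposited values (filled bars) after median centring (open bars) and with the library median as covariate (diamonds). The vertical lines are the share of all 11248 genes, 27.1% higher and 6.65% lower, and apply to the filled bars only. The shares for the open bars, 14.6% and 14.5%, and for the diamonds, 10.6% and 7.89%, are not drawn. On the deposited values p97 adaptors, denervation genes and tRNA synthetases lie farthest to the right. On the same values the lists of myokines and secreted factors (35% lower) and of glycolysis (34.5% lower) lie farthest to the left.

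Fuel genes were counted by pathway, and no difference between pathways was tested. For fatty acids, 15 of 45 genes (33.3%) of uptake, storage and oxidation rose and 6 (13.3%) fell, against 27.1% and 6.65% of all genes. After centring 7 were higher and 7 lower, 15.6% each, about the shares of all genes (14.6% and 14.5%). With the covariate 5 were higher and 3 lower. On the deposited values, 3 were lower without sham replicate 1. Pnpla2, the lipase that starts the breakdown of stored triglyceride, was at 197, 261, 284 and 108 CPM in sham and 719, 1087, 595 and 672 CPM in T3 muscle (log2 change 1.91 ± 0.27, adjusted p = 0.00021). Plin2, a coat protein of lipid droplets, rose from 28.6, 34.9, 32.9 and 17.9 CPM to 63.4, 65.4, 176 and 167 CPM, with T3 replicates 3 and 4 far above T3 replicates 1 and 2 (log2 change 1.92 ± 0.37, adjusted p = 0.0019). Lpl, the lipase that frees fatty acids from circulating lipoproteins, fell from 691, 448, 707 and 661 CPM to 321, 294, 227 and 249.6 CPM (log2 change -1.19 ± 0.18, adjusted p = 0.0003). Scd1, which makes monounsaturated fatty acids, fell from 71.9, 81.5, 252 and 117 CPM to 16.1, 18.4, 60.25 and 23.6 CPM without overlap (log2 change -2.17 ± 0.43, adjusted p = 0.0023).

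In glycolysis, which breaks glucose down to pyruvate, 10 of 29 genes (34.5%) fell and 2 (6.9%) rose. Over all genes 6.65% fell and 27.1% rose. After centring 13 glycolysis genes were lower and 2 higher, and with the covariate 13 and 1. In the citric acid cycle and the entry of pyruvate into it, 6 of 34 genes (17.6%) fell and 3 (8.82%) rose. After centring 16 of these were lower and 1 higher, and with the covariate 5 and 0. On the deposited values, 3 of the 34 were lower without T3 replicate 3. The number higher was 5 without sham replicate 2, 6 without sham replicate 3 and 1 without any 1 of the other 6 libraries. For ketones and NAD, 7 of 24 genes (29.2%) fell and 3 (12.5%) rose. After centring 7 were lower and 1 higher, and with the covariate 8 and 0. On the deposited values, 1 was higher without T3 replicate 3 or 4. Beside Bdh1 and Nmrk2 above, Oxct1, the next enzyme of ketone oxidation, fell from 333, 362, 319.8 and 235 CPM to 168, 165, 153 and 184 CPM (log2 change -0.89 ± 0.16, adjusted p = 0.0012). Of 22 genes of creatine and purine nucleotides, 7 (31.8%) rose and 6 (27.3%) fell, against 27.1% and 6.65% of all genes. After centring 5 were higher and 7 lower, and with the covariate 3 and 4. Gamt, which makes creatine, fell from 9.2 ± 0.945 to 3.03 ± 0.565 CPM, and Ckm, the muscle creatine kinase, from 16865, 14762, 13604 and 15973 CPM to 9513, 9108, 9865 and 10541 CPM (log2 change -0.65 ± 0.14, adjusted p = 0.0042). In glycogen metabolism, Gbe1, the branching enzyme, rose from 43.6, 59.5, 60.47 and 32.8 to 249, 293, 213 and 169.9 CPM (log2 change 2.25 ± 0.21, adjusted p = 1.1e-05). Pgm1, a phosphoglucomutase that interconverts the hexose phosphates made from glycogen, fell from 1309 ± 239.9 to 675 ± 171 CPM.

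Regulators of mitochondrial and fuel genes moved in both directions. Of 30 genes of the PGC-1 network, 7 (23.3%) rose and 5 (16.7%) fell, against 27.1% and 6.65% of all genes (2 and 13 after centring, 0 and 6 with the covariate). The share that rose was thus no higher than that of all genes. The number higher was 4 without sham replicate 1 and 3 without sham replicate 4, T3 replicate 3 or T3 replicate 4, and 9 were lower without sham replicate 4. The risen ones were Mef2a, Mef2d, Nrf1, Ppard, Pprc1, Prkaa1 and Sirt1. Ppard, a nuclear receptor for fatty acids, was at 24.5, 41.8, 37 and 15.9 CPM in sham and 61.9, 67, 53.5 and 64.8 CPM in T3 muscle (log2 change 1.14 ± 0.24, adjusted p = 0.003). Perm1, a muscle regulator that acts with PGC-1 coactivators, was at 235, 310.2, 227 and 120.2 CPM in sham and 84.8, 170.2, 45 and 47.7 CPM in T3 muscle (log2 change -1.50 ± 0.41, adjusted p = 0.013). T3 replicate 2 overlapped the sham range. Ppargc1b, the coactivator PGC-1 beta, fell from 7.59, 13.4, 15.2 and 7.09 CPM to 1.92, 3.19, 4.65 and 4.09 CPM (log2 change -1.63 ± 0.31, adjusted p = 0.0019). Ppargc1a, PGC-1 alpha, was at 62.7, 49.4, 29.1 and 21.1 CPM in sham and 31, 34.2, 17.6 and 18.4 CPM in T3 muscle, which did not pass the test as deposited (log2 change -0.62 ± 0.31, adjusted p = 0.13) and passed after centring (-0.89, adjusted p = 0.049). Slc2a4, the insulin-responsive glucose transporter (log2 change -0.16 ± 0.21, adjusted p = 0.56), and Pdk4, the kinase that shuts pyruvate out of the citric acid cycle (log2 change 0.54 ± 0.53, adjusted p = 0.45), did not pass the test. Nor did Ucp3, a muscle uncoupling protein (log2 change -0.68 ± 0.42, adjusted p = 0.22). Hk2, the insulin-responsive hexokinase, did not pass either, and its sign differed between the deposited (0.24) and the centred values (-0.04).

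Sarcomere genes moved in both directions. Of 40 genes of the thick, thin and titin filaments, 12 (30%) rose and 6 (15%) fell, against 27.1% and 6.65% of all genes. The share that rose was thus near that of all genes. After centring 8 were higher and 10 lower, and with the covariate 4 and 5. Nrap, a scaffold of new myofibrils and of fibre ends, was at 859.7, 1353, 1495 and 662 CPM in sham and 5267, 4342, 3808 and 3239.8 CPM in T3 libraries (log2 change 1.98 ± 0.25, adjusted p = 9.4e-05). Pdlim3, an actinin-binding protein of the Z disc, rose from 398, 367, 386 and 298 CPM to 1798, 1139, 1171 and 1005 CPM (log2 change 1.79 ± 0.17, adjusted p = 1.5e-05). Myom3, an M band protein of intermediate fibres, rose from 48.9 ± 26.9 to 193 ± 18.7 CPM. All 3 were higher in every T3 library than in any sham library. The calsarcins, Z disc proteins that bind calcineurin, fell: Myoz1 by 0.88, Myoz2 by 1.51 and Myoz3 by 1.29 on the log2 scale (adjusted p = 0.0031, 0.002 and 5e-05).

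The myosin heavy chains of the fibre types did not move as a set. Myh2, of fast oxidative 2A fibres, fell from 1264, 2256, 3919 and 608 CPM to 1006, 479, 342 and 437 CPM (log2 change -1.64 ± 0.46, adjusted p = 0.015), and lost the call without T3 replicate 3 (adjusted p = 0.051). Myh1, of 2X fibres, was at 1696, 3425, 3477 and 784 CPM in sham and 8225, 2990.4, 4219.5 and 4738 CPM in T3 muscle, with the highest value in T3 replicate 1 (log2 change 1.24 ± 0.44, adjusted p = 0.042). It was not called after centring (adjusted p = 0.092), nor without sham replicate 1 or 4 or T3 replicate 1, 3 or 4 (adjusted p = 0.071 to 0.12). Myh4, of 2B fibres (log2 change 0.75 ± 0.35, adjusted p = 0.11), and Myh7, of slow fibres (log2 change 1.30 ± 0.74, adjusted p = 0.19), did not pass the test. Myh7 ran from 7.75 to 236 CPM among the sham libraries alone. Myh14, a non-muscle myosin present in muscle fibres, rose from 31.3, 90.9, 86.8 and 25 CPM to 399.7, 379, 299.5 and 340.0 CPM without overlap (log2 change 2.82 ± 0.36, adjusted p = 9.4e-05).

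Calcium handling genes fell more often than they rose. Of 37 genes of excitation-contraction coupling, 5 (13.5%) rose and 10 (27%) fell, against 27.1% and 6.65% of all genes. After centring 3 were higher and 14 lower, and with the covariate 1 and 9. On the deposited values, 6 were lower without sham replicate 1, T3 replicate 1 or T3 replicate 2. Pvalb, the calcium buffer parvalbumin of fast fibres, was at 13796, 7728, 7506 and 19443 CPM in sham and 4343, 4434, 4835 and 5419 CPM in T3 muscle (log2 change -1.24 ± 0.26, adjusted p = 0.0034). Casq2, the slow and cardiac calsequestrin that stores calcium in the sarcoplasmic reticulum, fell from 39.3, 16.9, 41.2 and 26.9 to 9.85, 11.4, 9.51 and 9.96 CPM (log2 change -1.52 ± 0.30, adjusted p = 0.0023). Casq1, the fast-fibre form, fell by 0.80 on the log2 scale. Cacng1, the gamma subunit of the calcium channel that senses voltage, rose from 218, 257, 287 and 172 CPM to 529, 800.0, 528 and 481 CPM (log2 change 1.32 ± 0.20, adjusted p = 0.0003).

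Of 30 channels and pumps of the fibre membrane, 9 (30%) rose and 5 (16.7%) fell, against 27.1% and 6.65% of all genes. The share that rose was near that of all genes. After centring 7 were higher and 11 lower, and with the covariate 2 and 10. On the deposited values, 11 were lower without sham replicate 4. Panx1, a large-pore channel that releases ATP, was at 3.25, 7.62, 5.66 and 3.84 CPM in sham and 39, 26.9, 32.5 and 31.4 CPM in T3 libraries (log2 change 2.73 ± 0.25, adjusted p = 1.1e-05). Kcnc4, a fast voltage-gated potassium channel, rose from 48.9, 74.5, 72 and 34 CPM to 209.8, 201, 204 and 206 CPM (log2 change 1.91 ± 0.21, adjusted p = 4e-05). Atp1b1, a beta subunit of the sodium pump, fell from 96.4, 126, 114 and 48.4 CPM to 25.3, 25.8, 29.7 and 31.8 CPM (log2 change -1.69 ± 0.24, adjusted p = 0.00022). Sntb1, a syntrophin that anchors signalling proteins and channels to the dystrophin complex, fell from 9.21 ± 3.33 to 2.16 ± 1.24 CPM.

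Most genes known to rise in muscle that has lost its nerve were higher. Of 23 denervation-response genes tested, 18 (78.3%) rose and 1 (4.35%) fell, against 27.1% and 6.65% of all genes. After centring 17 were higher and 1 lower, and with the covariate 14 and 0. The median log2 change as deposited was 2.19. This list shares Fbxo32 and Trim63 with the ligases. The acetylcholine receptor of muscle is built from the subunits of Chrna1, Chrnb1 and Chrnd with Chrng before innervation or Chrne in adult endplates. Chrna1 was at 10.3, 12.3, 15 and 7.44 CPM in sham and 41, 52.3, 63.1 and 45.1 CPM in T3 muscle (log2 change 2.19 ± 0.26, adjusted p = 6.4e-05). Chrnb1 rose from 18, 18, 23.9 and 10.4 to 47.5, 57.6, 65.5 and 65.3 CPM, and Chrnd from 1.04, 2.32, 2.24 and 0.948 to 4.92, 9.29, 15.9 and 11.1 CPM (log2 change 2.63 ± 0.39, adjusted p = 0.00032). The adult subunit Chrne stayed in the same range, 10.3, 12.7, 12.8 and 7.09 CPM in sham and 10.9, 12.1, 13.5 and 10.1 CPM in T3 libraries, and its small difference changed sign with centring (0.15 as deposited and -0.12 centred). Musk, the kinase that organises the endplate, rose by 1.17 on the log2 scale (adjusted p = 0.0048), and Dok5, an adaptor of receptor tyrosine kinases, fell by 1.73 (adjusted p = 0.012). Of the whole list of 23 junction genes, 9 (39.1%) rose and 2 (8.7%) fell, against 27.1% and 6.65% of all genes. After centring 7 were higher and 4 lower, and with the covariate 4 and 4. On the deposited values, leaving out sham replicate 1, 2 or 3 or T3 replicate 1, 2 or 4 left 1 lower.

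The promoter of Chrna1 is shown because myogenic factors such as MyoD and myogenin, whose own genes are described next, are known to act on it through E boxes. The window is GRCm38.p6, chr2:73580289-73580588, minus strand, from RefSeq, and capitals mark the letters CAGCTG, which read the same on both strands.
Chrna1: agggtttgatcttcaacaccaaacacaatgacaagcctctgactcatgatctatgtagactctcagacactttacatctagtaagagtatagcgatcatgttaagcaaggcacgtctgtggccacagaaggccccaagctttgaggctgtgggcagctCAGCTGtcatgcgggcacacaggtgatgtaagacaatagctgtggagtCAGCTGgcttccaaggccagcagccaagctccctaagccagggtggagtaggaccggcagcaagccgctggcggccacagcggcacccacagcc
It holds 2 matches, against 0 in the window of Chrnb1 and 1 in that of Chrne. Of all 32851 windows, 16.3% hold at least 1 match and 1.9% more than 1.

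Among 25 myogenic factors and satellite cell genes, 13 (52%) rose and 0 fell, against 27.1% and 6.65% of all genes. After centring 9 were higher and 0 lower, and with the covariate 5 and 1. Myog, myogenin, was at 4.52, 3.68, 5.52 and 3.79 CPM in sham and 9.19, 70.9, 61.2 and 52 CPM in T3 muscle (log2 change 3.13 ± 0.48, adjusted p = 0.00036). Myod1, MyoD, was at 23.8, 15.5, 15.5 and 9.43 CPM in sham and 5.14, 62.2, 88 and 137 CPM in T3 muscle, which did not pass the test (log2 change 1.54 ± 0.73, adjusted p = 0.12). T3 replicate 1 stood apart from the other T3 libraries in single genes. It held the lowest T3 value of Myog, of Myod1, of Ankrd1 and of Rrad. Ankrd1, a titin-binding stress protein, was at 9.09, 11.4, 25.5 and 3.14 CPM in sham and 20.7, 263, 237 and 100.80 CPM after T3. Rrad, a small GTPase that inhibits calcium channels, was at 2.64, 5.36, 3.79 and 0.649 CPM in sham and 3.12, 47.9, 53.5 and 44.9 CPM after T3. Without that library Myod1 was called higher, with a log2 change of 2.57 (adjusted p = 0.00021). T3 replicate 1 held the lowest T3 value in 1034 of the 3046 risen genes (33.9%), where the other 3 T3 libraries held it in 18.4% to 24.1%. It was not low across the denervation list: of the 18 risen members it was lowest in 6 and highest in 7. T3 replicate 2 was lowest in 7 of them. Of the 13 risen myogenic genes T3 replicate 1 was lowest in 6 and highest in 2. For the 9 risen junction genes these numbers were 6 and 1, and for the 16 risen ligases 2 and 9. Cdh15, the M-cadherin of satellite cells and young fibres, did not share the spread of Myog: it was at 20.0, 27.8, 29.3 and 15.3 CPM in sham and 56.8, 61.1, 56.3 and 54.4 CPM in T3 libraries (log2 change 1.35 ± 0.20, adjusted p = 0.00032).

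**Figure D3:**
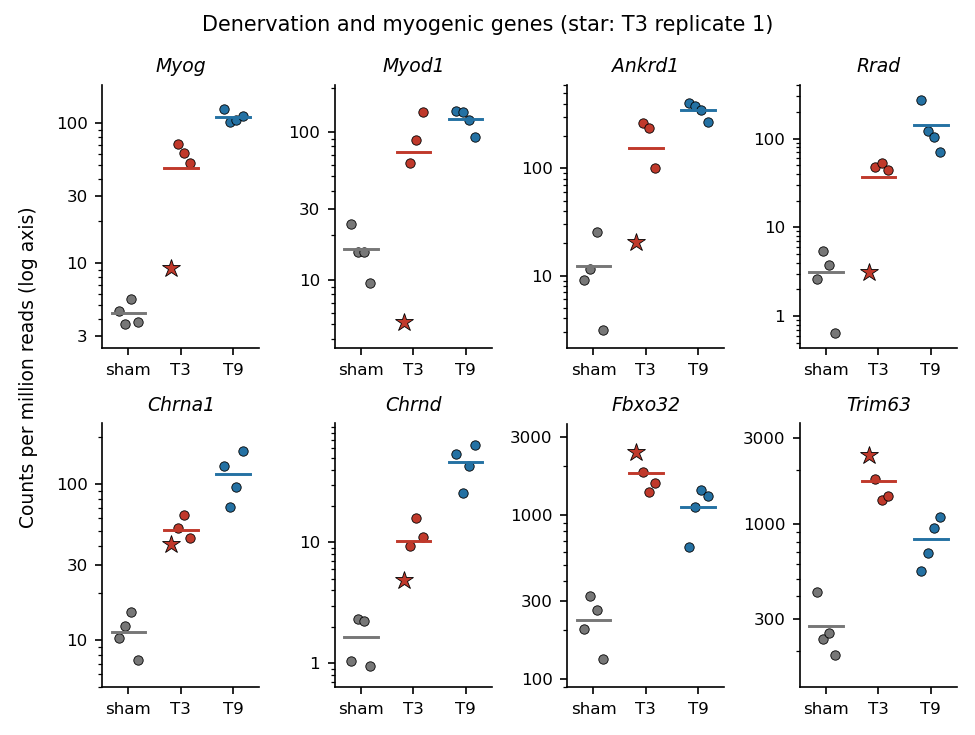
CPM (log axis) in each gastrocnemius library for 8 genes of the denervation and myogenic lists; T3 replicate 1 is drawn as a star and the other libraries as circles. In Myog, Myod1, Ankrd1 and Rrad the star lies within, just above or below the sham points, and below the other 3 T3 libraries, whereas in Fbxo32 and Trim63 it is the highest T3 point.

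The clock and immediate early genes also changed. Of 22 circadian genes, 11 (50%) rose and 2 (9.09%) fell, against 27.1% and 6.65% of all genes. After centring 8 were higher and 2 lower, and with the covariate 3 and 2. Cry2, a repressor of the clock, rose from 21, 32.5, 51.9 and 18.3 CPM to 87.8, 82.6, 59.3 and 63.3 CPM (log2 change 1.35 ± 0.26, adjusted p = 0.0021). The output regulator Dbp fell from 50.7, 71.1, 128 and 57.35 to 37.5, 43.2, 35.8 and 35.3 CPM (log2 change -0.92 ± 0.24, adjusted p = 0.011). Bhlhe41, a further output regulator, fell from 31.4, 70.0, 69.4 and 28.1 to 22.4, 21.8, 22.8 and 27.4 CPM (log2 change -0.95 ± 0.27, adjusted p = 0.016). The labels name no hour at which muscle was taken. Of 27 immediate early genes, 12 (44.4%) rose and 4 (14.8%) fell. The numbers were the same after centring, and with the covariate 8 were higher and 5 lower. Jun, a subunit of the AP-1 factor, was at 74, 60.45, 79.5 and 38 CPM in sham and 176, 238, 265 and 247 CPM in T3 muscle (log2 change 1.92 ± 0.21, adjusted p = 3.3e-05). Myc, the growth regulator, rose from 3.39, 4.2, 2.67 and 1.1 to 8.26, 11.5, 17.7 and 11 CPM (log2 change 2.18 ± 0.36, adjusted p = 0.00059). Dusp1, a MAP kinase phosphatase, fell from 40.9, 56.8, 53.8 and 39.3 CPM to 17.8, 15.8, 17.8 and 22.3 CPM (log2 change -1.37 ± 0.18, adjusted p = 0.00013). Crem, a regulator that answers to cyclic AMP, fell from 9.12 ± 1.85 to 4.06 ± 0.828 CPM.

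Cytokine signalling genes that passed the test on the deposited values were higher. Of 30 genes of NF-kB, STAT3 and cytokine receptors, 14 (46.7%) rose and 0 fell, against 27.1% and 6.65% of all genes. After centring 10 were higher and 2 lower, and with the covariate 9 and 3. On the deposited values, 2 were lower without sham replicate 4. Cebpb, a transcription factor downstream of cytokines and glucocorticoids, was at 25.5, 32.2, 39.9 and 23 CPM in sham and 99.6, 97.6, 102 and 128 CPM in T3 muscle (log2 change 1.85 ± 0.19, adjusted p = 2.1e-05). Relb, of the noncanonical NF-kB pathway, rose from 5.32, 13.6, 7.76 and 4.64 CPM to 23.4, 24.9, 22.5 and 27.9 CPM (log2 change 1.78 ± 0.26, adjusted p = 0.00031). Stat5b, which carries growth hormone and cytokine signals, rose from 149 ± 39.6 to 373 ± 41.3 CPM. Of 20 myokines and other secreted factors, 3 (15%) rose and 7 (35%) fell. After centring 2 were higher and 9 lower, and with the covariate 1 and 8. Il15, a cytokine made by muscle, fell from 4.76, 3.04, 3.46 and 8.24 CPM to 1.59, 0.610, 0.984 and 0.949 CPM (log2 change -2.17 ± 0.34, adjusted p = 0.00044). Vegfd, a vascular and lymphatic growth factor, rose from 2.21, 3.1, 4.44 and 2.0 to 15.2, 11.4, 8.8 and 8.0 CPM (log2 change 1.90 ± 0.26, adjusted p = 0.00017).

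Of 20 genes of metal ion balance, 6 (30%) rose and 1 (5%) fell, near the shares of all genes (3 and 5 after centring, 5 and 4 with the covariate; 2 were lower without sham replicate 4). Single members for zinc and iron are given here. The metallothionein Mt1, which binds zinc and copper, was at 41.8, 21.1, 28.8 and 34 CPM in sham and 132, 144, 91.7 and 106 CPM in T3 libraries (log2 change 1.94 ± 0.20, adjusted p = 2.6e-05). Its neighbour of the same family, Mt2, was at 2.97, 0.581, 1.08 and 2.3 CPM in sham and 9.79, 10.4, 7.16 and 7.95 CPM in T3 libraries (log2 change 2.58 ± 0.38, adjusted p = 0.00031). Slc39a14, a zinc and iron importer, rose from 8.43, 13.9, 9.59 and 4.64 CPM to 62.3, 52.5, 45.8 and 58.4 CPM (log2 change 2.67 ± 0.26, adjusted p = 1.6e-05). None of these 3 overlapped between the groups. Tfrc, the transferrin receptor, fell from 216, 92, 142 and 93.7 to 31.1, 56.7, 54.6 and 35.3 CPM (log2 change -1.57 ± 0.29, adjusted p = 0.0015). The promoters of both metallothioneins are shown because the pair moved together and metal response elements are known in them. The windows are from RefSeq, GRCm38.p6, plus strand, chr8:94178839-94179138 for Mt1 and chr8:94172368-94172667 for Mt2. Capitals mark TGCACNC or TGCGCNC on either strand, the core of that element.
Mt1: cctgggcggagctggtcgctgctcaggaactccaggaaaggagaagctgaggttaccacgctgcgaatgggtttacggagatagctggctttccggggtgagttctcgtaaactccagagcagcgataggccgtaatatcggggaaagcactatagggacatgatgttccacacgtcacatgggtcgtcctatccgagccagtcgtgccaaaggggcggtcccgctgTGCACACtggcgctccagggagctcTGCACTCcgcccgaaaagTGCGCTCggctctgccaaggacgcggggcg
Mt2: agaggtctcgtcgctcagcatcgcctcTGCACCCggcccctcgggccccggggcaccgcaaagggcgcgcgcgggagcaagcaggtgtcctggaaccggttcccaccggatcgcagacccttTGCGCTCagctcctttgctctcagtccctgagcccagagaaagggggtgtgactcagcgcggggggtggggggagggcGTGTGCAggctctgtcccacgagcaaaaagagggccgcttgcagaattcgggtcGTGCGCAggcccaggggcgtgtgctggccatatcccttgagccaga
The Mt1 window holds 3 matches and the Mt2 window 4. Of all windows, 25.7% hold at least 1 match, 7.11% more than 1 and 0.517% more than 3.

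Markers of the other cells in muscle pieces passed the test in part, where 27.1% of all genes rose and 6.65% fell. Of 13 endothelial markers, 2 rose, Cldn5 and Robo4, and 0 fell, with 0 called in either direction after centring and 0 higher and 3 lower with the covariate. The number higher was 7 without sham replicate 2 or 3, 1 without sham replicate 1 or 4 or T3 replicate 2 or 3, and 0 without T3 replicate 1 or 4. Their summed level was 143 to 427 CPM in sham and 375 to 446 CPM in T3 libraries. Of 23 fibroblast and matrix markers, 6 fell and 1 rose (12 and 1 after centring, 10 and 0 with the covariate; without sham replicate 4, 10 were lower and 2 higher), and the summed level was 949 to 1328 and then 1184 to 1497 CPM. Postn, periostin of the matrix, fell from 6.31, 5.49, 6.83 and 3.99 CPM to 1.48, 1.15, 1.42 and 1.25 CPM (log2 change -2.05 ± 0.22, adjusted p = 3e-05), and Gsn, the actin-severing gelsolin that fibres also express, rose. Of 11 macrophage markers, 2 rose and 0 fell (the same after centring and with the covariate; 2 were lower without sham replicate 2). One was Cd68, a lysosomal membrane protein, from 1.04, 0.452, 2.34 and 0.998 CPM to 8.43, 20.3, 7.22 and 4.21 CPM (log2 change 3.01 ± 0.47, adjusted p = 0.00041). The other was Gpnmb, a glycoprotein of lysosomes, from 0.989, 1.23, 1.54 and 0.898 to 5.74, 2.91, 7.76 and 8.18 CPM (log2 change 2.30 ± 0.30, adjusted p = 0.00012). The other 9 macrophage markers, among them C1qa, Csf1r and Lyz2, did not pass the test, and the summed level was 24.2 to 70.4 CPM in sham and 55.9 to 61.6 CPM after T3. Of 10 skeletal muscle markers, Casq1, Ckm, Mb and Mylpf fell and Des rose (5 lower and 0 higher after centring, 2 and 0 with the covariate; 2 were higher without sham replicate 2 or 3 and 0 without T3 replicate 2).

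Of 7 markers of Schwann cells, which wrap the nerve, 1 (14.3%) rose and 0 fell, against 27.1% and 6.65% of all genes. After centring or with the covariate 0 were called in either direction. Their summed level was 446 to 925 CPM in sham and 722 to 2051 CPM in T3 libraries. The risen one was Cryab, a small heat shock protein that fibres also express, and it lost the call without sham replicate 1 or 4 or T3 replicate 1 or 2. Of 14 basement membrane markers 1 rose and 0 fell (0 and 0 after centring, 0 and 2 with the covariate), and the number higher was 5 without sham replicate 2, 3 without sham replicate 3 and 0 without any 1 of the other 6 libraries. Of 9 markers of pericytes and smooth muscle 0 were called in either direction (1 lower after centring, 3 lower with the covariate); without sham replicate 2 or 3, 2 were higher, and without sham replicate 4, 1 was lower. Of 9 adipocyte markers 1 fell and 0 rose (3 and 0 after centring, 1 and 0 with the covariate), and 4 were lower without sham replicate 2. Of 3 tendon markers 1 fell and 0 rose (1 and 0 after centring, 1 and 0 with the covariate), and 1 was higher without sham replicate 4. Of 5 red blood cell markers 0 were called in either direction in any of these fits. The neutrophil and lymphocyte lists had 1 marker each in the test. Lcn2, the iron-binding lipocalin of neutrophils and of other injured cells, rose from 1.93, 0.581, 1.26 and 0.449 CPM to 5.03, 6.24, 4.26 and 2.31 CPM (log2 change 2.19 ± 0.42, adjusted p = 0.0019). Ighm, the heavy chain of immunoglobulin M made by B cells, fell from 19, 49.3, 44.6 and 37.7 CPM to 11.1, 5.22, 3.88 and 9.66 CPM (log2 change -2.37 ± 0.38, adjusted p = 0.00051). The part of other cells in the changes above was not tested.

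The number of genes that differed between T3 and T9 transection depended on the fit. T3 minus T9 was tested in the same fit, in which 82 genes (0.729%) were higher and 101 (0.898%) lower after T3 than after T9, and after centring 172 (1.53%) and 84 (0.747%). The counts were 525 and 878 with library weights, 420 and 640 when only these 2 groups were fitted, and 243 and 180 with the median covariate. The counts of the shared fit rest on single libraries: 4 and 7 genes were left without T9 replicate 4, 10 and 10 without T9 replicate 1, 31 and 29 without T9 replicate 2, and 8 and 9 without T9 replicate 3. The counts were 7 and 8 without T3 replicate 1, 14 and 16 without T3 replicate 2 and 45 and 56 without T3 replicate 4. Without T3 replicate 3 they were 72 and 122. Of the 16 genes described in this paragraph and the next, 3 kept the call without T9 replicate 4, where the adjusted p ran from 0.0092 to 0.16. Gdap1, Aqp4 and Gdf11 kept it in all 8 fits that left out a library. Gdap1 was at 10.1, 7.64, 7.66 and 7.09 CPM after T9, between the sham and the T3 level (T3 minus T9 log2 difference -1.68 ± 0.20, adjusted p = 0.0019). Aqp4 was at 16, 15.4, 16.2 and 36.3 CPM after T9 (T3 minus T9 log2 difference -2.65 ± 0.40, adjusted p = 0.0094). Gdf11, at 14.1, 21.2, 17.7 and 13.9 CPM in sham and 9.74, 5.69, 8.69 and 13.3 CPM after T3, was at 31.9, 27.6, 25.5 and 23.3 CPM after T9 (T3 minus T9 log2 difference -1.58 ± 0.23, adjusted p = 0.0094). All 3 were lower after T3 than after T9. Vgll2, a muscle cofactor of TEAD transcription factors, was at 33.7, 54.8, 47 and 23.1 CPM in sham, 107, 137, 77.2 and 110.1 CPM after T3 and 37, 38.7, 29.8 and 29.4 CPM after T9 (T3 minus T9 log2 difference 1.66 ± 0.25, adjusted p = 0.0094). It lost the call without T9 replicate 4 alone (adjusted p = 0.052).

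Genes of fatty acid and acetate use were among those higher after T3 than T9. Of 45 fatty acid genes tested, 6 were above T9 and 0 below, and after centring 8 and 0. In the fits that left out a library, 0 were above without T9 replicate 3, T9 replicate 4 or T3 replicate 1. The number above was 1 without T9 replicate 1, T9 replicate 2 or T3 replicate 2, 3 without T3 replicate 4, and 6 without T3 replicate 3. Fabp3, the fatty acid binding protein of muscle, was at 666, 321, 489 and 677 CPM in sham, 409, 707, 304 and 303 CPM after T3 and 169, 102, 100.3 and 123 CPM after T9 (T3 minus T9 log2 difference 1.74 ± 0.30, adjusted p = 0.017). It did not pass the test between T3 and sham (log2 change -0.35 ± 0.30, adjusted p = 0.37). Pnpla2, given above for sham and T3, was at 289, 313, 282 and 375 CPM after T9 (T3 minus T9 log2 difference 1.26 ± 0.27, adjusted p = 0.036). Eci2, an isomerase for unsaturated fatty acids, was higher after T3 by 0.79 on the log2 scale. Acss2, which makes acetyl-CoA from acetate, was at 22.4, 32.6, 38.4 and 14.7 CPM in sham, 126, 78.4, 69.7 and 65.1 CPM after T3 and 25.4, 30.3, 19.7 and 24 CPM after T9 (T3 minus T9 log2 difference 1.73 ± 0.28, adjusted p = 0.016). Perm1 was at 21.5, 24.5, 12.8 and 11.2 CPM after T9, lower than after T3 (T3 minus T9 log2 difference 2.17 ± 0.41, adjusted p = 0.023), with the mean of either injury below sham. Mustn1, a small nuclear protein of muscle and bone growth, was at 43.2, 44.9, 53.5 and 50.5 CPM in sham, 325, 381, 118 and 142 CPM after T3 and 48.5, 95.6, 25.6 and 41.8 CPM after T9 (T3 minus T9 log2 difference 2.17 ± 0.40, adjusted p = 0.021). Pik3r1 and Eif4ebp1 were also higher after T3, by 1.17 and 0.95 (adjusted p = 0.028 and 0.02). A pair of the 4 receptor subunits described above was lower after T3 than T9. Chrnd was at 53.5, 25.8, 42.5 and 64 CPM after T9 (T3 minus T9 log2 difference -2.21 ± 0.39, adjusted p = 0.019) and Chrna1 at 130.2, 70.4, 95.6 and 162 CPM (T3 minus T9 log2 difference -1.13 ± 0.26, adjusted p = 0.047). Chrnb1 (T3 minus T9 log2 difference -0.48 ± 0.22, adjusted p = 0.32) and Chrne (T3 minus T9 log2 difference -0.23 ± 0.20, adjusted p = 0.64) did not pass the test. Scx, a transcription factor of tendon, was at 8.15, 3.81, 7.16 and 13.1 CPM in sham, 7.61, 11.8, 19.8 and 10.0 CPM after T3 and 43.8, 36.4, 43.3 and 54.4 CPM after T9 (T3 minus T9 log2 difference -1.93 ± 0.34, adjusted p = 0.019). Tuba1b, an alpha tubulin, was at 16.3, 15.3, 15.8 and 16.1 CPM in sham, 9.03, 15, 33.9 and 18.2 CPM after T3 and 89.8, 37.1, 49.8 and 69.1 CPM after T9 (T3 minus T9 log2 difference -1.77 ± 0.34, adjusted p = 0.024). Neither of the last pair passed the test between T3 and sham.

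**Figure D4:**
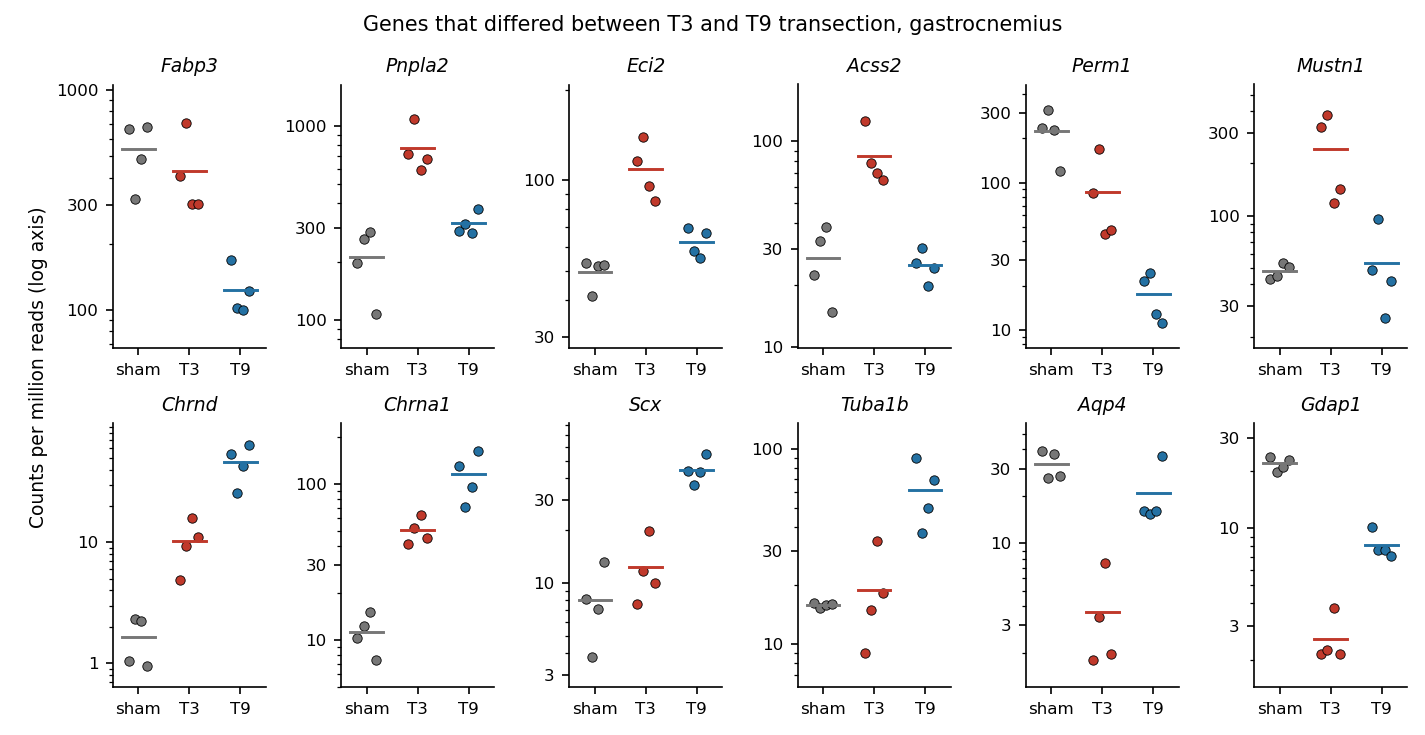
CPM (log axis) in each gastrocnemius library after sham surgery, T3 or T9 transection for 12 genes that differed between T3 and T9; each point is 1 library and the short bar is the group mean. The upper row holds genes higher after T3 than T9 (Fabp3, Pnpla2, Eci2, Acss2, Perm1, Mustn1) and the lower row genes lower after T3 (Chrnd, Chrna1, Scx, Tuba1b, Aqp4, Gdap1).

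The effect of T3 transection was then set against that in the triceps brachii, with 4 sham and 4 T3 libraries of each muscle matched by label number. The labels do not say that this number is a mouse. The T3 effect was larger in the positive direction in the gastrocnemius for 36 of 11249 genes (0.32%) and larger in the negative direction for 176 (1.56%), and after centring for 71 (0.631%) and 239 (2.12%). Leaving out 1 library gave 11 to 143 and 83 to 234 genes, with the fewest of the latter without triceps sham replicate 4 and the most of the former without triceps sham replicate 3. Without the label number as a block the counts were 6 and 69, and with it as a fixed effect 16 and 124. Genes of oxidative fuel use stood among the latter: 7 of 30 PGC-1 network genes and 7 of 45 fatty acid genes had a lower effect in the gastrocnemius, and 0 of either list a higher one. After centring, 9 PGC-1 genes and 6 fatty acid genes had a lower effect, and 0 and 1 a higher one. Leaving out 1 library left 5 to 10 PGC-1 genes and 2 to 10 fatty acid genes, the fewest of these without triceps sham replicate 4. Bdh1 fell in the gastrocnemius and was at 12.7 ± 7.25 CPM in sham triceps and 73 ± 31.2 CPM in T3 triceps. Its difference between the effects was -6.73 ± 0.53, adjusted p = 6.8e-08. Triceps levels here and below are the mean ± SD over the 4 matched libraries of a group. Ppargc1a was at 31.4 ± 14.9 and 172 ± 87 CPM in the triceps (difference in log2 change -3.04 ± 0.43, adjusted p = 0.00027). Fabp3 was at 589 ± 164 and 2157 ± 1070.1 CPM (difference in log2 change -2.11 ± 0.44, adjusted p = 0.011), and its call was lost without triceps sham replicate 4 (adjusted p = 0.057) and without the block (adjusted p = 0.061). In the triceps of the label-matched mice all 3 rose after T3 transection, by 2.68, 2.43 and 1.75 on the log2 scale (adjusted p = 0.0003, 9.6e-05 and 0.0021). Perm1 was at 140.5 ± 85.6 CPM in sham and 259.6 ± 63 CPM in T3 triceps (difference in log2 change -2.59 ± 0.49, adjusted p = 0.0049).

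Single genes of the membrane, the fibre types and calcium storage also had a lower effect in the gastrocnemius. Among them were 1 of 37 genes of excitation-contraction coupling, 2 of 30 channels and pumps, 1 of 12 myosin heavy chains and 2 of 17 slow-fibre genes. Over all genes the share was 1.56% (2.12% after centring). Counts this small are no result about the lists. Myh2, which fell in the gastrocnemius, was at 447 ± 318 CPM in sham and 1442 ± 669 CPM in T3 triceps (difference in log2 change -3.57 ± 0.64, adjusted p = 0.0032). Atp1b1 was at 70.8 ± 26.6 and 153 ± 19.3 CPM (difference in log2 change -2.87 ± 0.30, adjusted p = 3.2e-06). Lpl was at 782 ± 181 and 1232 ± 178 CPM in the triceps (difference in log2 change -1.86 ± 0.21, adjusted p = 1.6e-05). Myoz2 was at 145 ± 37.3 and 257 ± 75.7 CPM (difference in log2 change -2.33 ± 0.34, adjusted p = 0.00037), and Casq2 was at 37 ± 12.6 and 51.6 ± 14.6 CPM (difference in log2 change -2.02 ± 0.35, adjusted p = 0.0023). Lrrc52, with no read in the T3 gastrocnemius, was at 0.736 ± 0.640 CPM in sham and 4.29 ± 1.93 CPM in T3 triceps. In the other direction, Gadd45a, a stress protein of denervated muscle, went from 24.4, 22.8, 26 and 24.4 CPM to 172, 291, 307 and 234 CPM in the gastrocnemius. It was at 25.7 ± 8.21 CPM in sham and 58.1 ± 75.5 CPM in T3 triceps (difference in log2 change 2.86 ± 0.63, adjusted p = 0.017). Its call was lost without any 1 of 4 libraries (adjusted p up to 0.076, without triceps sham replicate 4), without the block (adjusted p = 0.057) and with the fixed effect (adjusted p = 0.074). Sox4, a transcription factor of the same list, went from 4.62, 4.71, 4.02 and 2.7 to 24.5, 18, 21.5 and 19.7 CPM in the gastrocnemius. It was at 7.06 ± 2.74 and 8.61 ± 7.4 CPM in the triceps (difference in log2 change 2.36 ± 0.45, adjusted p = 0.0052). Fst was at 3.43 ± 1.44 and 2.58 ± 1.09 CPM in the triceps (difference in log2 change 2.33 ± 0.43, adjusted p = 0.0042). The ligases Fbxo32 and Trim63 did not pass this test, with differences between the muscles in the log2 change of 0.64 ± 0.54, adjusted p = 0.72, and 0.63 ± 0.42, adjusted p = 0.61.

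**Figure D5:**
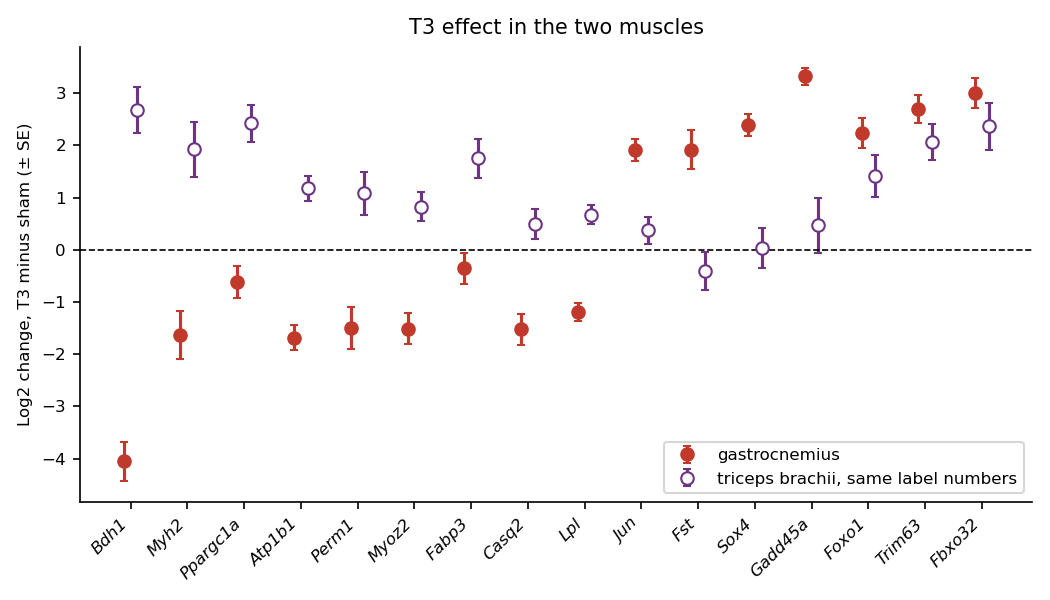
Log2 change after T3 transection in the gastrocnemius (filled) and in the triceps brachii of mice with the same label numbers (open) for 16 genes; bars are the standard error and the dashed line marks no change. Bdh1, Myh2, Atp1b1, Ppargc1a, Perm1, Fabp3, Lpl, Myoz2 and Casq2 lie below 0 in the gastrocnemius and above 0 in the triceps, Gadd45a, Sox4, Fst and Jun lie higher in the gastrocnemius, and Fbxo32, Trim63 and Foxo1 lie above 0 in both.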

How the data were processed

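Muscle RNA was extracted with Trizol, selected for polyadenylated RNA and sequenced as stranded paired-end libraries, per the labels' protocols. Per the submitters' processing notes, the tools were HISAT2 2.1.0, featureCounts of Subread 1.5.1 and limma, with the build GRCm38. The authors deposited 1 table of log2 counts per 1000000 reads (log2 CPM) with an offset of 0.5 reads, for 11249 genes and 30 libraries. In every library 100% of values came within 0.01 of a whole read, so CPM and depth were recovered from the table, and no column of per-sample values was left unused.

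Genes that reached a log2 value of 0 in 4 or more of the 12 gastrocnemius libraries were tested with limma 3.58.1 (R 4.3.3, moderated variance with a trend, two-sided) on the deposited log2 values, all 3 groups fitted together and p-values adjusted by Benjamini-Hochberg over 11248 genes, with a threshold of 0.05. The difference between muscles used 24 libraries of 12 mice, the mouse being taken as the number in the label, which the labels do not call a mouse, as a random block (correlation 0.277). All other values were computed with Python 3.11.15. The model was tested on simulated data.

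Named genes were up to 15 per direction with the largest change, up to 5 per list by adjusted p or with a role opposite to the list, 10 per direction in the other contrasts, and a panel of well-known genes, of which some are not analysed or not reported here. Musk, Plin2 and Vcp fall outside that rule and were chosen after their values were seen, as were the markers named without values. The members and lists were chosen with earlier results of these data known. Alternatives varied the scaling, filter, pseudocount, variance model, weights, blocks and libraries; median-of-ratios scaling, the median covariate and centring with a library left out were added after seeing the data. Promoter windows come from RefSeq, GRCm38.p6.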

Additional observations from a re-analysis of the deposited data

Results flagged for a closer look

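Of 269 groups of 4 libraries, over the 135 genes named here, 12 (4.46%) had 1 library far from the other 3, where chance gives about 1 in 20. The T3 group of Lrrc52, which held no read, is not counted in the 269. The value given is the gap of that library to its nearest neighbour on the log2 scale as a share of the group's range. In sham muscle, replicate 3 stood apart for Acvr1b (0.983), replicate 2 for Eci2 (0.914) and Lpl (0.851), and replicate 4 for Slc2a4 (0.878), Dok5 (0.876) and Myoz3 (0.858). After T3 transection, replicate 1 stood apart for Rrad (0.938), Foxo1 (0.856) and Myog (0.848), replicate 3 for Gdap1 (0.912), and replicate 2 for Hsp90ab1 (0.907) and Asb5 (0.838).

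For 25 of the named genes the T3 effect differed between the muscles in limma's test of the difference itself, given here as gastrocnemius minus triceps brachii on the log2 scale. It was negative for enzymes and transporters of fuel and iron, namely Bdh1 (-6.73), Tfrc (-2.29), Fabp3 (-2.11), Lpl (-1.86) and Oxct1 (-1.19), and for regulators of mitochondrial genes and the lysosome, Ppargc1a (-3.04), Perm1 (-2.59) and Fnip1 (-1.21). Fibre and membrane genes were also lower: Myh2 (-3.57), Atp1b1 (-2.87), Myoz2 (-2.33) and Casq2 (-2.02). So were the signalling genes Irs1 (-2.21), Prkg1 (-2.05), Grb14 (-1.58), Dusp1 (-1.44), Map2k6 (-1.37) and Rxrg (-0.85). Lrrc52 had a difference of -9.02, a value that depends on the offset of 0.5 reads because its T3 gastrocnemius libraries held no read. The difference was positive for Gadd45a (2.86), Sox4 (2.36), Myc (2.34), Fst (2.33), Lpin2 (2.16) and Jun (1.54). Leaving out 1 of 16 libraries ended the call in at least 1 fit for Dusp1, Fabp3, Gadd45a, Irs1, Lpin2, Myc, Oxct1 and Rxrg, with the highest adjusted p, 0.21, for Irs1 without gastrocnemius sham replicate 2. Without the label number as a block the call was lost for the same 8 genes. With it as a fixed effect it was lost for Gadd45a, Jun, Lpin2, Myc and Rxrg, and after centring for Rxrg. The labels do not say that this number is a mouse.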

How the results depend on the processing

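Between T3 and sham, median centring gave 1641 genes higher and 1627 lower, quantile normalization 1674 and 1543, voom weights with median-of-ratios scaling 1601 and 1604, and a fit of only the 2 groups 1883 and 473. A fit with the library median as covariate gave 1191 higher and 888 lower. Leaving out 1 library gave 2159 to 3757 higher and 507 to 1014 lower, and with centring 1162 to 1982 and 1023 to 2077. Of the 135 named genes, 121 were called on the deposited values and 117 of these in all 8 such fits, the exceptions being Bag1, Myh1, Myh2 and Ubxn2a. Of the same 121 genes 120 were called in the same direction after centring, and 18 lost the call with the median covariate. Ankrd1 was one of these 18, with a log2 change of 3.48 as deposited and 1.46 with the covariate (adjusted p = 0.17 in limma). Genes that changed sign were not called on the deposited values. These were, after centring, Chrne (-0.12), Hk2 (-0.035) and Tuba1b (-0.17), and with quantile normalization Chrne (-0.12) and Tuba1b (-0.16). With library weights they were Chrne (-0.091), Hk2 (-0.40) and Nr3c1 (0.061), and with median-of-ratios scaling Chrne (-0.13), Hk2 (-0.034) and Tuba1b (-0.17). With the median covariate they were Chrne (-0.31), Fabp3 (0.31), Hk2 (-0.66), Myh4 (-0.23) and Tuba1b (-0.26). Leaving out 1 library gave -0.23 (without T3 replicate 3) to 0.41 for Tuba1b, -0.032 to 0.25 for Chrne and -0.13 to 0.50 for Hk2 (both lowest without sham replicate 4), and -0.14 to 0.026 for Nr3c1 (highest without T3 replicate 1). The cause was not tested.

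Between T3 and T9, centring gave 172 higher, quantile normalization 139, median-of-ratios scaling 179, library weights 525 higher and 878 lower, only the 2 groups 420 and 640, the median covariate 243 and 180, and leaving out 1 library 4 to 72 and 7 to 122. For the muscle difference, centring gave 71 higher, quantile normalization 102 higher and 288 lower, no mouse block 6 and 69, mouse as a fixed effect 16 higher, leaving out the sham mouse of label number 4 163 higher, all 30 libraries 83 higher, and leaving out 1 library 11 to 143 and 83 to 234. The replicate number as a block gave 2702 higher and 668 lower between T3 and sham and 35 and 35 between T3 and T9. Deviations of same-numbered sham and T3 libraries correlated at -0.066, -0.2, 0.101 and -0.131, so the numbers were not taken as pairs. The TMM scaling of edgeR, its quasi-likelihood test and DESeq2 were planned and not run, because the table holds log2 values. At 14751762 reads or more per library, a gene near 1 CPM rests on few reads.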

Other observations

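Further gene lists were counted in the T3 against sham comparison, in which 27.1% of all genes rose and 6.65% fell. Of 41 splicing factors, 25 (61%) rose and 1 (2.44%) fell. After centring 10 were higher and 2 lower, and with the library median as covariate 2 and 1. Without T3 replicate 3 the number higher was 15, and 0 were lower without sham replicate 1 or T3 replicate 1. In the catabolism of branched-chain amino acids, which muscle burns as fuel, 8 of 22 genes (36.4%) rose and 0 fell. After centring 3 were higher and 3 lower, and with the covariate 2 and 2. The number higher was 4 without T3 replicate 4 and 5 without sham replicate 1, sham replicate 4 or T3 replicate 3, and 1 was lower without any 1 of the sham libraries. Of 35 genes of calcineurin, CaMK and HDAC signalling, which couples fibre activity to transcription, 9 (25.7%) rose and 6 (17.1%) fell. The share that rose was near that of all genes. After centring 4 were higher and 9 lower, and with the covariate 2 and 6. Without sham replicate 2, 14 were higher.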
